A study of Rattus norvegicus with 9 samples.

Results

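The genes described here encode the proteins that license replication origins, unwind and copy chromosomal DNA, and supply the nucleotides for the copy. They were listed by name, 43 symbols in all, and 42 of them matched a gene among the 18924 in the deposited table. E2f1 matched no row and was not analysed here. All 42 matched genes passed the filter on low counts, which kept 13856 genes. RNA was sequenced from primary chondrocytes, cells that lay down cartilage matrix, taken from SD rats and used at passage 1 or 2, in 3 groups of 3 libraries. RPTi cells were kept for 24 h in rat plasma to which thrombin and an unnamed inhibitor were added, RPT cells in plasma and thrombin, and RP cells in plasma with no addition. Plasma was therefore common to every group, and no doses are stated. Thrombin is the serine protease of blood clotting, which also signals to cells through protease-activated receptors. Nothing in the labels ties the libraries of a group to separate animals or cultures, so every p-value rests on a spread between libraries that may be technical only.

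In mammals an origin is licensed in G1 phase, when the origin recognition complex, Cdc6 and Cdt1 load the ring-shaped Mcm2-7 helicase onto DNA. At the start of S phase Mcm10, Cdc45 and the GINS complex turn the loaded ring into an active helicase. Polymerase alpha with primase lays down the primers, and polymerases delta and epsilon then copy the strands, held to DNA by the sliding clamp Pcna. Many of these genes are textbook targets of E2F transcription factors and are high in dividing cells. Chondrocytes divide little in adult cartilage and proliferate in growth plates and in culture.

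RPTi cells had lower levels of most replication genes than RPT cells, and RPT cells had higher levels of most of them than RP cells. In RPTi against RPT, 37 of the 42 genes were lower, none was higher and 5 did not pass an adjusted p of 0.05 in edgeR's quasi-likelihood test. Over all tested genes, 21.1% were lower and 20.4% higher in that comparison, against 88.1% lower among the replication genes. The list was chosen with earlier results of these data known, so shares set beside those of all genes are a description and not a test. In RPT against RP, 31 of the 42 were higher, none was lower and 11 did not pass, where 13.6% of all tested genes were higher and 15.2% lower. Every RPTi library was below every RPT library for 37 of the 42 genes and above for 1, beside 26.0% and 24.8% of all tested genes. Every RPT library was above every RP library for 32 genes and below for none, beside 20.0% and 20.4%. These comparisons share the RPT libraries and are not independent of each other. In RPTi against RP, which does not use the RPT libraries except for the estimate of spread, 1 gene was higher, 6 were lower and 35 did not pass, beside 11.9% higher and 12.3% lower over all tested genes. That comparison depended on scaling: 11 genes were lower and 1 higher with library totals alone, where the median log2 fold change of the 42 genes was -0.12, against -0.072 with TMM scaling. The changes were small. Called genes differed by 1.18-fold to 2.09-fold in RPTi against RPT, by 1.16-fold to 1.65-fold in RPT against RP, and by 1.22-fold to 1.39-fold in RPTi against RP. The median log2 fold change of the 42 genes was -0.42, 0.36 and -0.072 in those 3 comparisons, where the median of all tested genes was -0.0083, -0.00071 and -0.0064. A test over the 3 groups together passed for 38 of the 42 genes and for 46.7% of all tested genes.

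**Figure D1:**
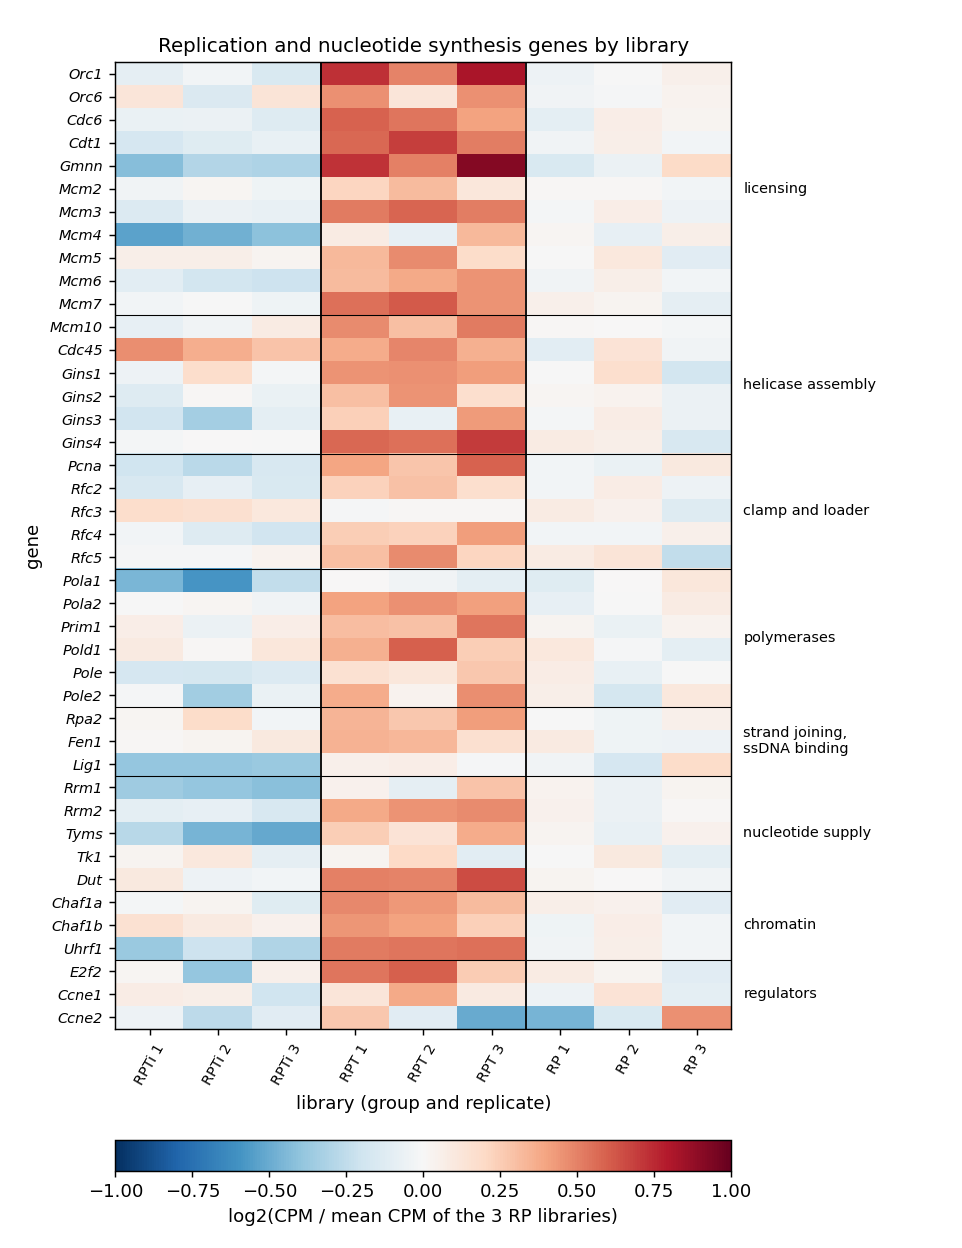
Level of each replication gene (rows, grouped by role) in each of the 9 libraries (columns), as log2 of its CPM over the mean CPM of the 3 RP libraries. Red is above and blue below the RP mean, and the RPT columns are red for most genes, while the RPTi columns lie near or below the RP level.

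The combined level of the 42 genes separated the groups without overlap. Their summed level was 2087, 2089.5 and 2052 CPM in RPTi, 2755, 2792 and 2808 CPM in RPT, and 2247, 2255 and 2218 CPM in RP. CPM is the count scaled to the library total with TMM factors. As a share of all counts they held 0.200 to 0.203% in RPTi, 0.283 to 0.285% in RPT and 0.225 to 0.226% in RP. Within a group the 3 libraries lay close together, and the gap between RPTi and RP was far smaller than that between either group and RPT. In bulk RNA, fewer cells in S phase and less of these RNAs per cell cannot be told apart.

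Promoter sequence was set beside these levels for 5 Mcm genes, all called in RPTi against RPT and in RPT against RP, and for Rfc3, which passed no comparison. RefSeq windows of assembly GRCr8, from 250 bases before to 50 bases after the gene start, were held for 35 of the 43 listed genes. Of the listed genes Orc1, Cdc6, Mcm4, Gins4, Rrm2, E2f1, E2f2 and Ccne2 had no window. The E2F-type 8-letter words TTTCCCGC, TTTGGCGC, TTTCGCGC and TTTGGCGG were searched on both strands, and overlapping matches were counted separately. At least 1 was found in 19 of the 35 windows, or 54.3%, against 3.72% of the 13621 windows of genes in the table and 2.18% of all 33469 windows. Within the range of GC content of the listed genes' windows, 45.7 to 73.3%, the share over genes in the table was 4.07%. Stretches of 100 bases are printed 5′ to 3′ along the gene's strand, with the matched letters in capitals. The Mcm2 stretch is chr4:122918045-122918144 (minus strand), that of Mcm3 chr9:30733697-30733796 (minus strand), that of Mcm5 chr19:13488595-13488694 (plus strand) and that of Mcm6 chr13:42404397-42404496 (minus strand). The Mcm7 stretch is chr12:22163136-22163235 (minus strand) and that of Rfc3 chr12:5836518-5836617 (plus strand). They hold 2 matches each, except Mcm7 with 1 of the 2 in its window, and the Mcm5 stretch leaves out the last of 3. No rule set beforehand which stretches are printed, and none comes from the 16 windows without a match. In Mcm2, Mcm5 and Mcm6 the 2 matches shown overlap on opposite strands, so that 1 run of capitals holds both.
Mcm2: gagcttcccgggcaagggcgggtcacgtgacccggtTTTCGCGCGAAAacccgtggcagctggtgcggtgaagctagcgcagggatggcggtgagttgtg
Mcm3: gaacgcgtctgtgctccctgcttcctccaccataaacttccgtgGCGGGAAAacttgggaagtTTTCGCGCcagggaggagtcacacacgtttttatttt
Mcm5: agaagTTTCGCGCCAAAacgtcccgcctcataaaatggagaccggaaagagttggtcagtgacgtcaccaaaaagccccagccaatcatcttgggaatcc
Mcm6: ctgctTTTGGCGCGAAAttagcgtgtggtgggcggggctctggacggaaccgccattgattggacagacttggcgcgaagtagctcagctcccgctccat
Mcm7: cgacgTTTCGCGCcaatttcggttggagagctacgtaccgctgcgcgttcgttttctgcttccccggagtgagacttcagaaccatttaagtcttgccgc
Rfc3: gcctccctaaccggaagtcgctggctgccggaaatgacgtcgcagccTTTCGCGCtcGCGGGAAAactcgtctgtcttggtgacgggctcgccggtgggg

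The 28 matches lay between 233 bases before and 38 bases after the gene start, at a median of 17.5 bases before it, and 22 of them within 100 bases of it. The CCAAT box, a common promoter element searched as CCAAT on both strands, was in 21 of the 35 windows (60%), against 36.6% of windows of genes in the table. Calls were also counted among genes with and without a match. Of the 19 genes with an E2F-type match, 17 were lower in RPTi than in RPT (median log2 fold change -0.43) and 13 higher in RPT than in RP (0.38). Of the 16 without one, 14 were lower (-0.35) and 13 higher (0.34). Rfc3 holds 2 matches and passed neither comparison, and Pcna and Uhrf1 hold none and passed both. A match is a description of these letters and not a site, and a window without one says nothing of whether a factor binds.

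**Figure D2:**
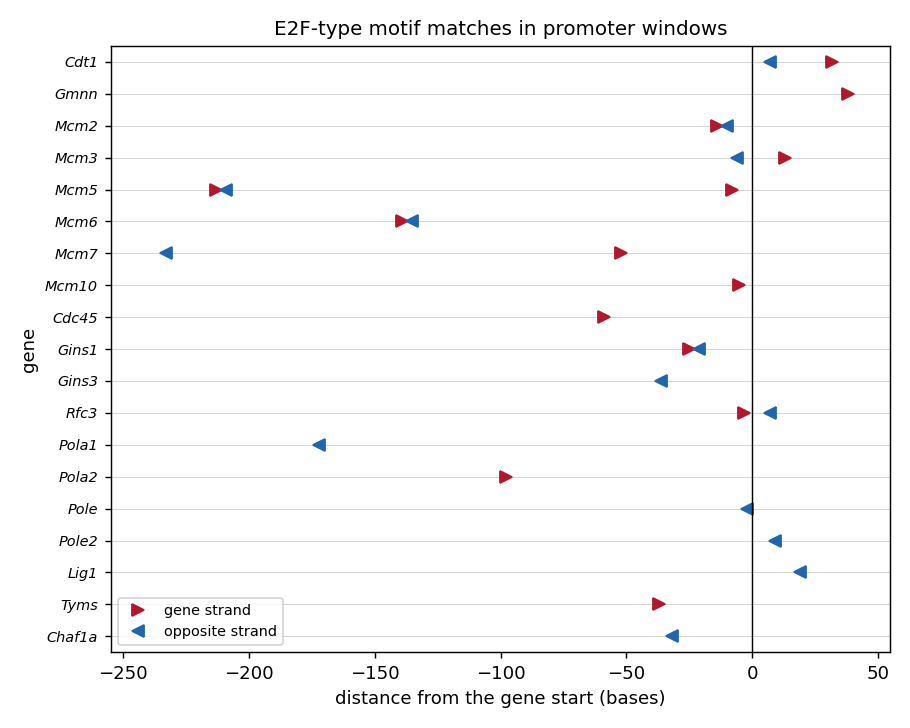
Position of each E2F-type match in the promoter windows of the 19 replication genes that hold one, as the distance in bases of its first base from the gene start (vertical line). Right-pointing triangles lie on the gene strand and left-pointing ones on the opposite strand, and 22 of the 28 matches are within 100 bases of the start.

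Licensing genes were lower in RPTi than in RPT in 11 of 11 cases and higher in RPT than in RP in 10 of 11. Geminin (Gmnn, ENSRNOG00000018782), which binds Cdt1 and blocks relicensing, had the largest change of the 42 genes in both comparisons. It stood at 11.1, 12.2 and 12.0 CPM in RPTi, 24.6, 21.1 and 28.1 CPM in RPT, and 13.4, 14.3 and 17.0 CPM in RP. The RPT libraries varied, yet the lowest RPT library was above every library of the other groups, and the RPTi libraries were all below the RP libraries. Gmnn was 2.09-fold lower in RPTi than in RPT (log2 fold change -1.07, SE 0.12, adjusted p = 1.13e-05) and 1.65-fold higher in RPT than in RP (log2 fold change 0.72, SE 0.12, adjusted p = 0.000466). Its target Cdt1 stood at 20.0, 20.6 and 21.4 CPM in RPTi, 33.5, 36.3 and 32.1 CPM in RPT, and 22.0, 23.4 and 22.1 CPM in RP, with no overlap between RPT and either other group. Cdt1 was 1.64-fold lower in RPTi than in RPT (log2 fold change -0.72, SE 0.073, adjusted p = 6.07e-06). Orc1, the largest origin recognition subunit, had 9.40, 9.78 and 8.99 CPM in RPTi, 16.6, 14.1 and 17.6 CPM in RPT, and 9.65, 9.94 and 10.4 CPM in RP, and the RPT values lay above all others. Its log2 fold change was -0.78 in RPTi against RPT (SE 0.098) and 0.69 in RPT against RP (SE 0.097). Cdc6, the loading ATPase, was 1.51-fold lower in RPTi than in RPT and 1.43-fold higher in RPT than in RP. Orc6 was the least stable of the group: its call in RPTi against RPT (adjusted p = 0.0362) was lost without RP replicate 1 (0.0508), RPT replicate 1 (0.13), RPT replicate 3 (0.105), RPTi replicate 1 (0.0505) or RPTi replicate 2 (0.139) or in a fit of the 2 groups alone (0.0582), and its call in RPT against RP (adjusted p = 0.0281) was lost without RP replicate 1 (0.0886), RP replicate 2 (0.0691), RPT replicate 1 (0.105) or RPT replicate 3 (0.0782), where the bracketed values are adjusted p.

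The 6 genes of the Mcm2-7 ring did not move by equal amounts. Mcm7 (ENSRNOG00000001349), the most abundant of the 6 per length in RPT, stood at 117, 119 and 115 CPM in RPTi, 175, 182 and 163 CPM in RPT, and 124, 122 and 112 CPM in RP. RPT was apart from the other groups, whose libraries overlapped. Mcm7 was 1.48-fold lower in RPTi than in RPT (log2 fold change -0.57, SE 0.061). Mcm3 and Mcm6 fell by a similar amount in RPTi against RPT, with log2 fold changes of -0.63 (SE 0.058) and -0.55 (SE 0.06). Mcm2 (ENSRNOG00000016316) and Mcm5 had the smallest changes of the ring, -0.24 (SE 0.061) and -0.28 (SE 0.078). Mcm2 stood at 157, 163 and 156 CPM in RPTi, 187, 200.4 and 174 CPM in RPT, and 162, 162 and 158 CPM in RP, and its lowest RPT library still exceeded all others. Its call in RPT against RP (log2 fold change 0.22, adjusted p = 0.0161) was lost without RP replicate 1 (0.0501), RP replicate 3 (0.0505) or RPT replicate 2 (0.0511). Mcm4 (ENSRNOG00000001833) was the exception of the ring. It had 84.9, 88.2 and 92.7 CPM in RPTi, 129.9, 116 and 154 CPM in RPT, and 125, 116 and 128 CPM in RP, so that the RPT and RP libraries overlapped and the RPTi libraries lay below both. Mcm4 was lower in RPTi than in RPT (log2 fold change -0.59, SE 0.09, adjusted p = 0.000198) and lower in RPTi than in RP (log2 fold change -0.47, SE 0.09, adjusted p = 0.00225), and did not pass in RPT against RP (0.12, SE 0.09, adjusted p = 0.374).

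**Figure D3:**
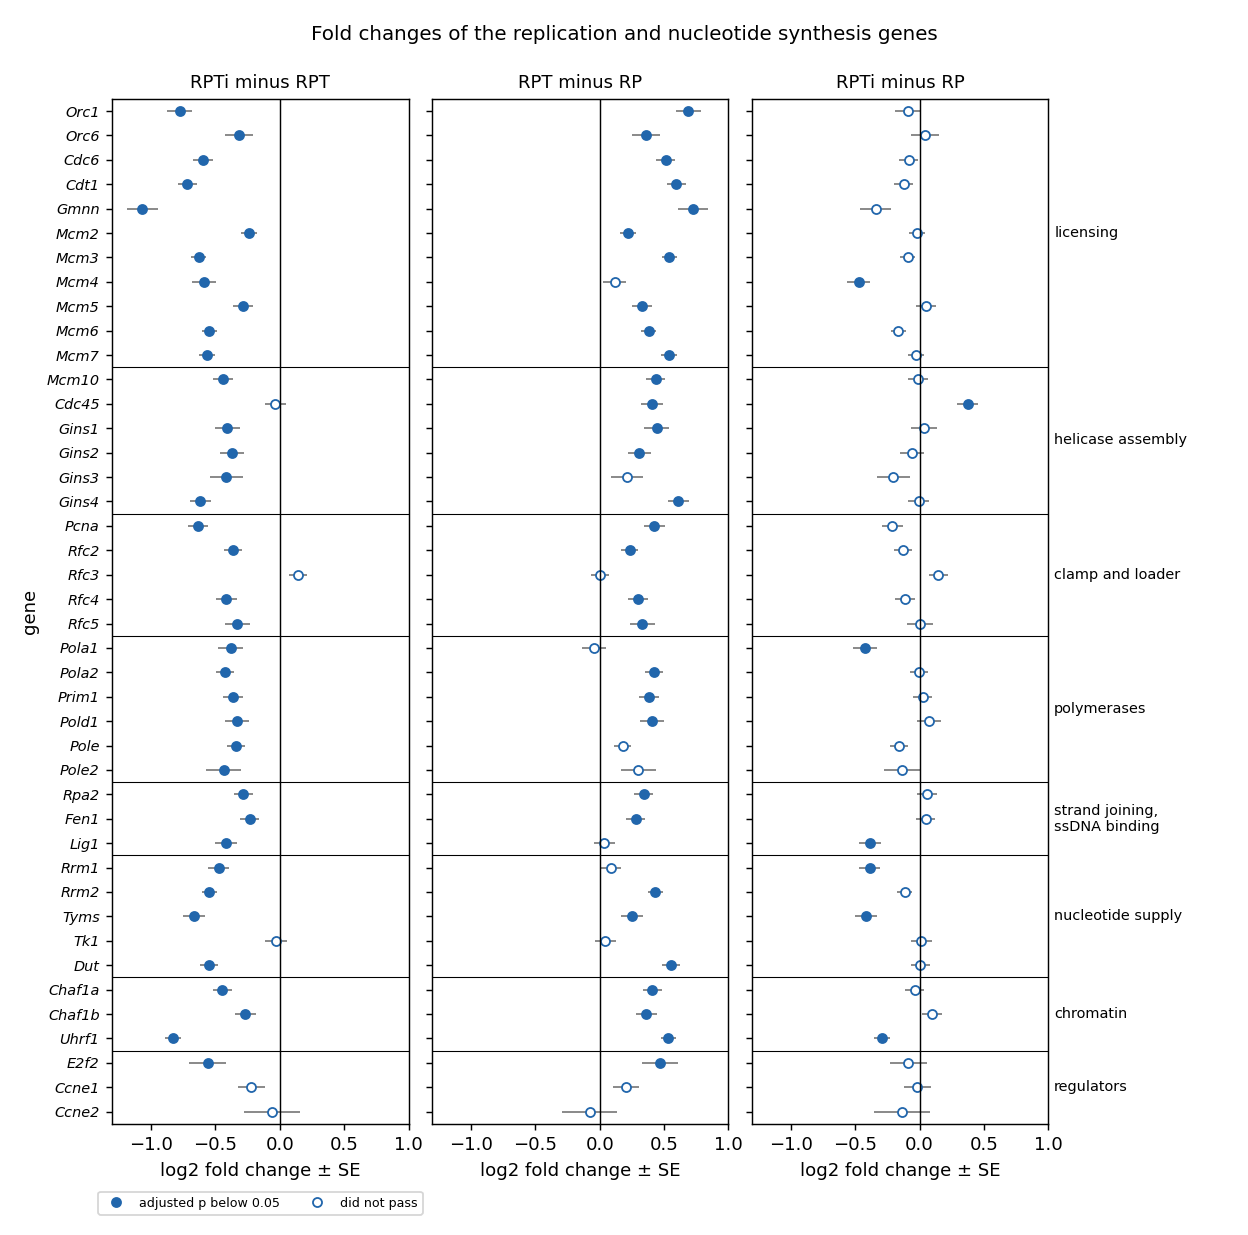
Log2 fold change of each replication gene with its standard error in RPTi minus RPT, RPT minus RP and RPTi minus RP, from edgeR's quasi-likelihood fit on 3 libraries per group. Filled points passed an adjusted p of 0.05: 37 in the left panel, all below 0, 31 in the middle panel, all above 0, and 7 in the right panel.

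Helicase assembly genes were lower in RPTi than in RPT in 5 of 6 cases and higher in RPT than in RP in 5 of 6. Gins4 (ENSRNOG00000018040), a GINS subunit and the most abundant of the 6 per length, changed most. It stood at 19.5, 19.8 and 19.7 CPM in RPTi, 29.5, 29.0 and 32.1 CPM in RPT, and 20.9, 20.6 and 17.7 CPM in RP, and the RPT libraries were apart from both other groups. Gins4 was 1.53-fold lower in RPTi than in RPT (log2 fold change -0.62, SE 0.082, adjusted p = 5.97e-05) and 1.53-fold higher in RPT than in RP. Mcm10, Gins1 and Gins2 had log2 fold changes of -0.44, -0.41 and -0.37 in RPTi against RPT. Cdc45 (ENSRNOG00000050071), which joins the ring to GINS, differed from the others. Its levels were 31.3, 29.2 and 27.6 CPM in RPTi, 29.3, 31.9 and 29.1 CPM in RPT, and 21.1, 24.9 and 22.1 CPM in RP: the RPTi and RPT libraries overlapped, and both groups lay above RP. Cdc45 was higher in RPTi than in RP (log2 fold change 0.37, SE 0.084, adjusted p = 0.00618), the only one of the 42 genes to be so, and higher in RPT than in RP (log2 fold change 0.41, SE 0.084, adjusted p = 0.00287). In RPTi against RPT it did not pass (log2 fold change -0.035, SE 0.083, adjusted p = 0.767). Gins3 had 7.34, 6.62 and 7.84 CPM in RPTi, 9.88, 7.98 and 11.2 CPM in RPT, and 8.27, 8.84 and 8.05 CPM in RP, so that RPTi was below both other groups, which overlapped. Gins3 was lower in RPTi than in RPT (adjusted p = 0.0197), a call lost without RPT replicate 1 (0.0544), RPT replicate 3 (0.082) or RPTi replicate 2 (0.0746), and did not pass in RPT against RP (log2 fold change 0.21, SE 0.13). The call of Gins2 in RPT against RP (adjusted p = 0.0216) was lost without RP replicate 1 (0.0587), RP replicate 3 (0.066), RPT replicate 1 (0.0546) or RPT replicate 2 (0.0853).

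Among the clamp and its loader, 4 of 5 genes were lower in RPTi than in RPT and 4 of 5 higher in RPT than in RP. Pcna (ENSRNOG00000021264), the sliding clamp, had the largest change and the highest level of the group. It stood at 83.2, 79.0 and 85.4 CPM in RPTi, 125, 116 and 144 CPM in RPT, and 93.5, 91.1 and 102 CPM in RP, with RPT above the other groups and every RPTi library below every RP library. Pcna was 1.55-fold lower in RPTi than in RPT (log2 fold change -0.64, SE 0.08, adjusted p = 3.88e-05) and 1.34-fold higher in RPT than in RP (log2 fold change 0.43, SE 0.08, adjusted p = 0.00159). The loader subunits Rfc2, Rfc4 and Rfc5 were 1.28-fold, 1.33-fold and 1.26-fold lower in RPTi than in RPT. Rfc3 (ENSRNOG00000001088), another loader subunit, did not follow them. It had 41.7, 41.1 and 39.8 CPM in RPTi, 36.6, 37.3 and 37.1 CPM in RPT, and 39.0, 38.0 and 33.7 CPM in RP, and its RPTi libraries all lay above those of RPT and RP, which overlapped. Its log2 fold change was 0.14 in RPTi against RPT (SE 0.071, adjusted p = 0.125) and 0.0041 in RPT against RP (SE 0.071). No other replication gene had a positive estimate in RPTi against RPT. Rfc5 lost its call in RPTi against RPT without RPT replicate 2 (0.0684), RPTi replicate 1 (0.0577) or RPTi replicate 2 (0.0537), and in RPT against RP without RP replicate 3 (0.0819) or RPT replicate 2 (0.0871) or in a fit of the 2 groups alone (0.0529). In RPT against RP, Rfc2 lost its call without RP replicate 1 (0.092), RP replicate 3 (0.0785), RPT replicate 1 (0.0654) or RPT replicate 2 (0.0709) or in a fit of the 2 groups alone (0.0517), and Rfc4 without RP replicate 1 (0.0536).

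Polymerase and primase genes were lower in RPTi than in RPT in 6 of 6 cases, and 3 of 6 were higher in RPT than in RP. Their log2 fold changes in RPTi against RPT fell in a narrow range, from -0.43 for Pole2 (SE 0.14), an accessory subunit of polymerase epsilon, to -0.33 for Pold1 (SE 0.092), the catalytic subunit of polymerase delta. Prim1 (ENSRNOG00000031993), which makes the RNA primer, was the most abundant per length and stood at 76.8, 70.5 and 77.0 CPM in RPTi, 91.0, 90.2 and 107 CPM in RPT, and 75.0, 70.2 and 75.6 CPM in RP. RPT was above both other groups, which overlapped. Prim1 was 1.28-fold lower in RPTi than in RPT (log2 fold change -0.36, SE 0.076, adjusted p = 0.00214) and 1.31-fold higher in RPT than in RP. Pold1 had 38.2, 36.4 and 39.0 CPM in RPTi, 45.9, 54.6 and 42.7 CPM in RPT, and 38.7, 35.7 and 33.6 CPM in RP, again with RPT above both other groups. Pola1 (ENSRNOG00000013322), the catalytic subunit of polymerase alpha, and its accessory subunit Pola2 differed in RPT against RP. Pola1 had 20.5, 18.7 and 23.7 CPM in RPTi, 28.2, 27.5 and 26.3 CPM in RPT, and 25.8, 28.2 and 30.4 CPM in RP, with RPT and RP overlapping and RPTi below both, whereas Pola2 had 23.4, 23.8 and 22.9 CPM in RPTi, 31.0, 32.2 and 31.1 CPM in RPT, and 22.2, 23.4 and 24.8 CPM in RP, with RPTi and RP overlapping and RPT above both. Pola1 was lower in RPTi than in RP (log2 fold change -0.42, SE 0.095, adjusted p = 0.00614) and had a log2 fold change of -0.041 in RPT against RP (SE 0.094, adjusted p = 0.785), where that of Pola2 was 0.42 (SE 0.069, adjusted p = 0.000613). Whether these 2 genes differ from each other was not tested. Pole and Pole2 did not pass in RPT against RP (adjusted p = 0.066 and 0.121), but Pole passed without RPT replicate 2 (0.0496) or with library totals alone (0.0443), DESeq2 Wald test (0.0428) or replicate block (0.0255), and Pole2 without RPT replicate 2 (0.0368) or with replicate block (0.0295). The call of Pole2 in RPTi against RPT (adjusted p = 0.0225) was lost without RPT replicate 1 (0.0718), RPT replicate 3 (0.0825) or RPTi replicate 2 (0.0927).

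The single-strand binding subunit Rpa2, the flap nuclease Fen1 and the ligase Lig1 were all lower in RPTi than in RPT, and Rpa2 and Fen1 were higher in RPT than in RP. Lig1 (ENSRNOG00000014193), which seals lagging-strand fragments, had the largest change of these in RPTi against RPT. It had 36.6, 36.6 and 37.1 CPM in RPTi, 49.6, 50.2 and 47.6 CPM in RPT, and 46.6, 42.7 and 54.4 CPM in RP, so that RPTi was below both other groups, which overlapped. Lig1 was lower in RPTi than in RPT (log2 fold change -0.42, SE 0.084, adjusted p = 0.00148) and lower in RPTi than in RP (log2 fold change -0.38, SE 0.084, adjusted p = 0.00538), and its log2 fold change in RPT against RP was 0.037 (SE 0.083). Rpa2 was 1.22-fold lower in RPTi than in RPT and 1.27-fold higher in RPT than in RP. Fen1 (ENSRNOG00000020531) had the smallest change among the called genes, 1.18-fold lower in RPTi (adjusted p = 0.0234), a call lost without RPT replicate 1 (0.091), RPT replicate 2 (0.0581), RPTi replicate 1 (0.0809) or RPTi replicate 2 (0.0698). In RPT against RP, Fen1 (adjusted p = 0.013) lost its call without RPT replicate 1 (0.0565).

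Of the 5 nucleotide supply genes, 4 were lower in RPTi than in RPT and 3 were higher in RPT than in RP. Rrm2 (ENSRNOG00000054286), the small subunit of ribonucleotide reductase, whose level limits deoxynucleotide synthesis in S phase, had the highest FPKM of the 42 genes in every group. It stood at 101, 103 and 96.8 CPM in RPTi, 141, 148 and 150.1 CPM in RPT, and 112, 104 and 109.6 CPM in RP, with RPT apart from both other groups. Rrm2 was 1.35-fold higher in RPT than in RP (log2 fold change 0.43, SE 0.057, adjusted p = 0.000112). Rrm1 (ENSRNOG00000045752), the large subunit, had 149, 146 and 143 CPM in RPTi, 196, 179 and 233 CPM in RPT, and 195, 183 and 194 CPM in RP, with RPT and RP overlapping and RPTi below both. Rrm1 was lower in RPTi than in RPT (log2 fold change -0.47, SE 0.082, adjusted p = 0.000503) and than in RP (log2 fold change -0.39, SE 0.082, adjusted p = 0.0044), and did not pass in RPT against RP (0.087, SE 0.081, adjusted p = 0.468). Tyms (ENSRNOG00000037225), which makes thymidylate from deoxyuridylate, changed most of the 5 in RPTi against RPT. It had 25.5, 22.4 and 21.6 CPM in RPTi, 36.6, 34.0 and 39.9 CPM in RPT, and 31.5, 29.3 and 31.8 CPM in RP, and the 3 groups did not overlap, with RPTi lowest and RPT highest. Its log2 fold change was -0.67 in RPTi against RPT (SE 0.086, adjusted p = 4.68e-05) and -0.41 in RPTi against RP (SE 0.086, adjusted p = 0.00399). Its call in RPT against RP (0.25, adjusted p = 0.0403) was lost without RP replicate 1 (0.0853), RP replicate 2 (0.129), RP replicate 3 (0.0564), RPT replicate 1 (0.0869), RPT replicate 3 (0.112) or RPTi replicate 2 (0.0536).

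Tk1 (ENSRNOG00000047314), the salvage enzyme that phosphorylates thymidine, had the least change of the group. It stood at 179, 188 and 165 CPM in RPTi, 178, 202 and 163 CPM in RPT, and 175, 188 and 164 CPM in RP, and the 3 groups overlapped. Its log2 fold changes were -0.03 in RPTi against RPT (SE 0.083), 0.045 in RPT against RP (SE 0.083) and 0.014 in RPTi against RP (SE 0.083). Dut, which removes dUTP and so keeps uracil out of DNA, had 46.8, 42.0 and 42.7 CPM in RPTi, 62.0, 61.6 and 68.7 CPM in RPT, and 44.6, 43.8 and 42.5 CPM in RP. Its RPT libraries stood above all others, and it was 1.46-fold lower in RPTi than in RPT (adjusted p = 4.64e-05) and 1.47-fold higher in RPT than in RP (adjusted p = 8.17e-05).

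The 3 genes of chromatin copying were lower in RPTi than in RPT and higher in RPT than in RP. Uhrf1 (ENSRNOG00000048411), which reads hemimethylated DNA behind the fork, had the smallest adjusted p of the 42 genes in RPTi against RPT. It had 61.9, 69.2 and 64.9 CPM in RPTi, 115, 116 and 117 CPM in RPT, and 78.1, 83.5 and 78.4 CPM in RP, with RPT highest, RP between, RPTi lowest and no overlap. Uhrf1 was 1.77-fold lower in RPTi than in RPT (log2 fold change -0.83, SE 0.062, adjusted p = 3.27e-07), 1.45-fold higher in RPT than in RP (log2 fold change 0.53, SE 0.061, adjusted p = 3.33e-05), and 1.22-fold lower in RPTi than in RP (log2 fold change -0.29, SE 0.062, adjusted p = 0.00425). Chaf1a and Chaf1b, subunits of the CAF-1 histone chaperone, were 1.36-fold and 1.20-fold lower in RPTi than in RPT. Chaf1b (ENSRNOG00000001692) had 20.1, 19.4 and 18.7 CPM in RPTi, 24.6, 24.0 and 21.4 CPM in RPT, and 17.6, 19.1 and 17.8 CPM in RP, with RPT above both other groups. It lost its call in RPTi against RPT (adjusted p = 0.0178) without RPT replicate 1 (0.079) or RPTi replicate 3 (0.069).

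Of 3 regulators of entry into S phase, 1 was lower in RPTi than in RPT and higher in RPT than in RP. This is 33.3% of a short list, beside 21.1% lower and 13.6% higher over all tested genes in those comparisons. E2f2 (ENSRNOG00000047741), an activating E2F factor and the least abundant of the 42 genes per length, had 6.04, 4.55 and 6.17 CPM in RPTi, 8.63, 9.01 and 7.10 CPM in RPT, and 6.28, 6.07 and 5.49 CPM in RP. Its RPT libraries lay above the others, and it was 1.47-fold lower in RPTi than in RPT (log2 fold change -0.56, SE 0.14, adjusted p = 0.007) and 1.39-fold higher in RPT than in RP (log2 fold change 0.47, SE 0.14, adjusted p = 0.025). The second of those calls was lost without RP replicate 2 (0.0546), RP replicate 3 (0.0803), RPT replicate 1 (0.0763) or RPT replicate 2 (0.0794). Ccne1 (ENSRNOG00000014786), cyclin E1, the Cdk2 partner at S phase entry, had 29.8, 29.4 and 24.6 CPM in RPTi, 30.8, 36.8 and 30.2 CPM in RPT, and 27.4, 31.1 and 26.5 CPM in RP. Every RPTi library was below every RPT library, and RP overlapped both. It did not pass in RPTi against RPT (log2 fold change -0.22, SE 0.10, adjusted p = 0.107), but passed with library totals alone (0.0318), limma-trend on log2(FPKM + 1) (0.0409), limma-trend on log2(FPKM + 0.1) (0.0376) or replicate block (0.0213). In RPT against RP it did not pass (adjusted p = 0.162), except with replicate block (0.0383). Ccne2 (ENSRNOG00000008055), cyclin E2, had 18.4, 15.9 and 17.7 CPM in RPTi, 23.1, 17.6 and 13.5 CPM in RPT, and 13.9, 17.2 and 26.3 CPM in RP. Its libraries spread within each of RPT and RP by more than the groups differed, and its log2 fold change was -0.059 in RPTi against RPT (SE 0.22).

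Replication genes that passed in RPTi against RP were Cdc45, which was higher, and Mcm4, Pola1, Lig1, Rrm1, Tyms and Uhrf1, which were lower. These are 2.38% higher and 14.3% lower, beside 11.9% and 12.3% of all tested genes, so the share of lower calls was near that of all genes. Mcm4, with a log2 fold change of -0.47 (SE 0.09), had the largest difference among them. Groups that do not overlap were more frequent than calls: 16 of the 42 genes had every RPTi library below every RP library, and 2 had every one above, beside 22.2% and 21.7% of all tested genes. Gmnn was close to the threshold in this comparison (log2 fold change -0.34, SE 0.12, adjusted p = 0.0534). It passed with RPT replicate 2 left out (0.031), with RPT replicate 3 left out (0.0289) or with RP replicate 1 left out (0.0463), and under other alternatives such as the DESeq2 Wald test (0.0371) or a replicate block (0.0182), but not with limma-voom or DESeq2 size factors. Pcna (adjusted p = 0.0764) and Mcm6 (0.0657) also passed under several alternatives: with library totals alone (0.0319 and 0.0136), in both limma-trend fits on FPKM, in a fit of the 2 groups alone (0.0262 and 0.0417), with a replicate block (0.00716 and 0.0324) and with RPT replicate 3 left out (0.0232 and 0.0324), and Pcna with RPT replicate 2 left out (0.0435). Pole, Rrm2 and Rfc2 passed under 2 or 3 of the alternatives each.

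Per length, the 42 genes spanned a wide range of levels. FPKM, a level scaled to gene length and library total, was used as deposited, given as mean ± SD over 3 libraries. Rrm2 was highest, with 83.0 ± 2.16 FPKM in RPTi, 127 ± 2.89 FPKM in RPT and 93.2 ± 3.69 FPKM in RP. Pcna came next in RPT and RP, with 69.2 ± 2.91 FPKM in RPTi, 113 ± 12.2 FPKM in RPT and 83.0 ± 5.57 FPKM in RP, and Tk1 had 77.7 ± 4.90 FPKM in RPTi, 83.3 ± 8.80 FPKM in RPT and 79.8 ± 4.86 FPKM in RP. Pcna and Tk1 exchanged places between groups, Tk1 being the higher of the 2 in RPTi and the lower in RPT. Mcm7, Dut, Prim1, Mcm6 and Mcm2 came next in RPT, between 58.6 and 71.2 FPKM, and most neighbours in that order did not differ beyond their SD. The scarcest were E2f2, with 1.15 ± 0.187 FPKM in RPTi, 1.78 ± 0.223 FPKM in RPT and 1.27 ± 0.0802 FPKM in RP, and the GINS subunits Gins2 and Gins3, with 3.86 and 4.15 FPKM in RPT. Within the Mcm2-7 ring, levels in RPT ran between 40.7 ± 5.78 FPKM for Mcm4 and 71.2 ± 4.03 FPKM for Mcm7. The catalytic polymerase subunits Pola1, Pole and Pold1 had 5.24, 9.24 and 11.8 FPKM in RPT, well below Prim1.

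**Figure D4:**
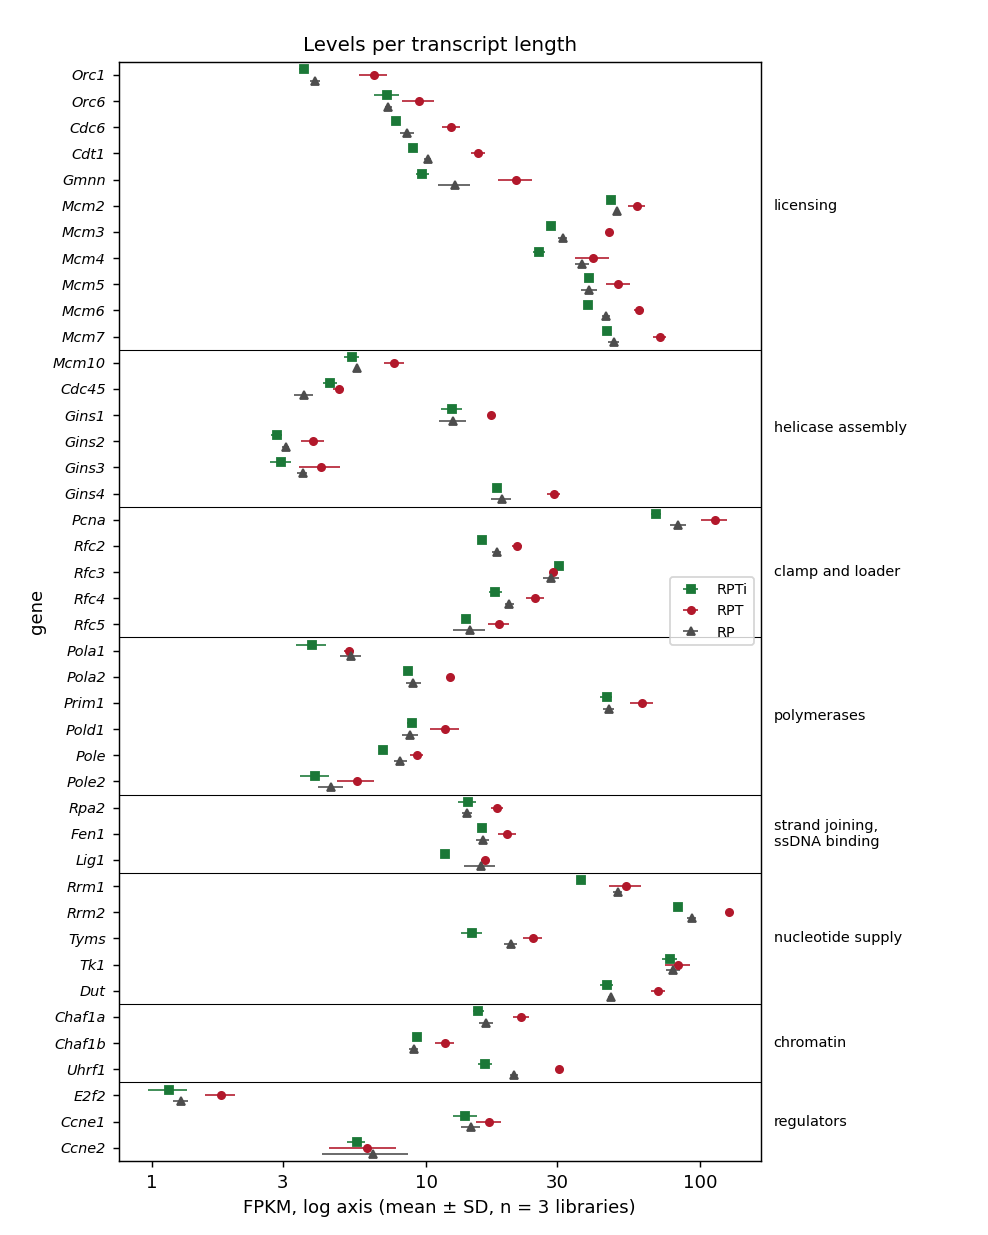
Deposited FPKM of each replication gene on a log axis, as the mean ± SD of 3 libraries in RPTi (squares), RPT (circles) and RP (triangles). Rrm2, Pcna and Tk1 are the most abundant per length and E2f2 the least, and for most genes the RPT mean lies to the right of the other 2.

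Other genes of the same pathways, from 135 companion genes listed by name, were counted in the same way. These lists too were chosen with earlier results of these data known, and their shares are descriptions. Of the 130 that passed the filter, 67 (51.5%) were lower and 8 higher in RPTi than in RPT, against 21.1% and 20.4% over all tested genes, and 49 (37.7%) were higher and 6 lower in RPT than in RP, against 13.6% and 15.2%. Among 45 other replisome and origin genes, 23 were lower in RPTi than in RPT and 20 higher in RPT than in RP, with none in the opposite directions. The smallest p in both belonged to Dnmt1, the maintenance DNA methyltransferase, and Ticrr, a factor needed to load Cdc45. Dnmt1 had 178, 171 and 173 CPM in RPTi, 269, 264 and 259 CPM in RPT, and 211, 204 and 202 CPM in RP, with no overlap between groups, and log2 fold changes of -0.60 (SE 0.051) in RPTi against RPT and 0.36 (SE 0.051) in RPT against RP. Ticrr was 1.69-fold lower in RPTi than in RPT and 1.41-fold higher in RPT than in RP. Of 11 G2 and M phase genes, 9 were lower in RPTi than in RPT, among them Ccnb1 (-0.62), cyclin B1, and Aurkb (-0.54), Aurora B kinase, and 5 were higher in RPT than in RP, among them Cdk1 (0.39) and Aurkb (0.38).

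Nucleotide pathways outside the listed genes mostly leaned the same way, with some calls in the opposite direction. In RPTi against RPT, 35.3% of deoxynucleotide and folate genes, 61.5% of purine genes and 57.1% of pyrimidine genes were lower. The share over all tested genes was 21.1%. Higher were 11.8%, 7.69% and 14.3%, beside 20.4%. In RPT against RP, 35.3%, 38.5% and 42.9% were higher, beside 13.6%, and 5.88%, 7.69% and 0% lower, beside 15.2%. Of 17 other deoxynucleotide and folate genes, 6 were lower and 2 higher in RPTi than in RPT, and 6 were higher and 1 lower in RPT than in RP. Shmt1, which feeds one-carbon units to thymidylate synthesis, had a log2 fold change of -0.62 (SE 0.082) in RPTi against RPT. Mthfd2, a mitochondrial folate enzyme, had 197, 197 and 191 CPM in RPTi, 166, 168 and 174 CPM in RPT, and 134, 139 and 129 CPM in RP, with RPTi highest and RP lowest, and was higher in RPTi than in RPT (0.20, SE 0.053) and in RPT than in RP (0.34, SE 0.053). Shmt2 was 1.61-fold higher in RPT than in RP (log2 fold change 0.69, SE 0.07, adjusted p = 1.16e-05). Dguok, a mitochondrial deoxynucleoside kinase, was higher in RPTi than in RPT (0.48, SE 0.11), and Samhd1, which breaks down deoxynucleotides, was lower in RPT than in RP (-0.43, SE 0.13). Of 13 purine synthesis genes, 8 were lower and 1 higher in RPTi than in RPT, led by Adss (-0.67) and Atic (-0.41), and 5 were higher and 1 lower in RPT than in RP, led by Adsl (0.45) and Impdh2 (0.28). The exception in both was Impdh1, an isoform of the first enzyme of guanine nucleotide synthesis, at 0.61 (SE 0.077) and -0.24 (SE 0.077). Of 7 pyrimidine synthesis genes, 4 were lower and 1 higher in RPTi than in RPT and 3 higher in RPT than in RP. The uridine-cytidine kinase gene Uck2 had 35.3, 39.3 and 37.7 CPM in RPTi, 67.3, 72.3 and 67.1 CPM in RPT, and 44.7, 49.3 and 43.2 CPM in RP, with RPT above both other groups and RPTi lowest, and was 1.84-fold lower in RPTi than in RPT (log2 fold change -0.88, SE 0.074). Umps was at -0.30 in RPTi against RPT and 0.36 in RPT against RP, and Ctps1, CTP synthase, was higher in RPTi than in RPT (0.34, SE 0.077).

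**Figure D5:**
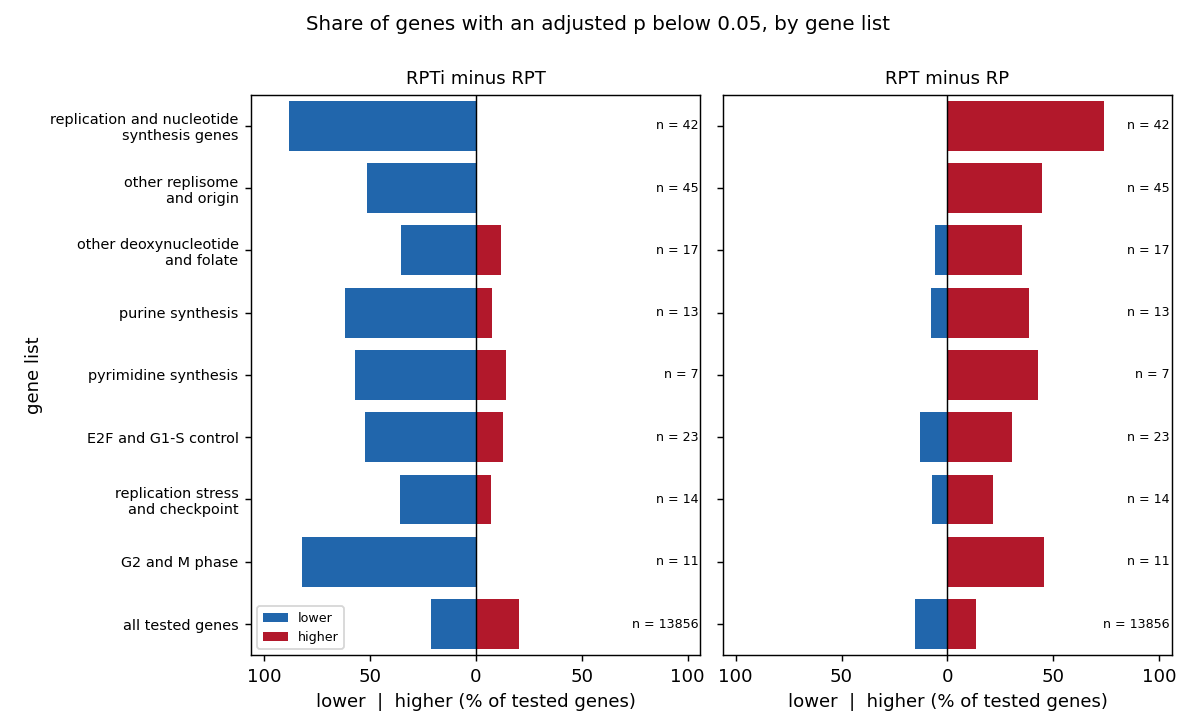
Percentage of the tested genes of each list that were lower (blue, to the left) or higher (red, to the right) at an adjusted p of 0.05 in RPTi minus RPT and RPT minus RP, with the number tested at the right edge. The replication and nucleotide synthesis genes had 88.1% lower in the first comparison and 73.8% higher in the second, against 21.1% and 13.6% over all 13856 tested genes. The lists were chosen with earlier results of these data known.

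E2F and G1-S control genes, 23 in all, were lower in 12 cases (52.2%) and higher in 3 (13.0%) in RPTi against RPT. In RPT against RP, 7 (30.4%) were higher and 3 (13.0%) lower. Over all tested genes, 21.1% were lower and 20.4% higher in the first comparison, and 13.6% higher and 15.2% lower in the second. Calls against the main direction were thus no more frequent than over all genes. Mybl2, an activator of cell cycle genes, had 75.5, 82.2 and 73.9 CPM in RPTi, 115, 122 and 108 CPM in RPT, and 71.4, 72.7 and 60.9 CPM in RP, with RPT apart from the other groups, and was 1.69-fold higher in RPT than in RP (log2 fold change 0.75, SE 0.08, adjusted p = 1.65e-05). Ccna2, cyclin A2, and the G1 kinase Cdk6 had log2 fold changes of -0.59 (SE 0.074) and -0.58 (SE 0.069) in RPTi against RPT. The Cdk inhibitor gene Cdkn1a had 189, 193 and 186 CPM in RPTi, 151, 171 and 142 CPM in RPT, and 133, 153 and 129 CPM in RP, with every RPTi library above every other. Cdkn1a was higher in RPTi than in RPT (0.30, SE 0.079) and than in RP (0.45, SE 0.079). Skp2, which marks Cdk inhibitors and Cdt1 for degradation, was higher in RPTi than in RPT (0.49, SE 0.076) and lower in RPT than in RP (-0.42, SE 0.076). Rbl2, a pocket protein of quiescent cells, was lower in RPT than in RP (-0.45, SE 0.099). Of 14 replication stress and checkpoint genes, 5 were lower and 1 higher in RPTi than in RPT, and 3 were higher and 1 lower in RPT than in RP. The 35.7% lower and 21.4% higher stand beside 21.1% and 13.6% of all tested genes. The helicase gene Blm was at -0.46 (SE 0.10) in RPTi against RPT and at 0.34 in RPT against RP, while the checkpoint kinase gene Chek1 was at 0.22 (SE 0.055) and -0.17 (SE 0.055).

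Library totals were 31914905 to 37125039 counts in RPTi, 31877265 to 37009972 in RPT and 33520888 to 43962783 in RP, so that 1 count was worth 0.0227 to 0.0314 CPM. The labelled cell type was compared with its markers: all 8 chondrocyte markers were abundant, with a summed level of 72868 to 79023 CPM in RPTi, 29683 to 31529 CPM in RPT and 47191 to 48244 CPM in RP. All 8 were higher in RPTi than in RPT and lower in RPT than in RP, and 6 were higher in RPTi than in RP. Fibroblast markers, 5 of 5 matched, summed to 15949 to 17485 CPM in RPTi, 9444 to 10328 CPM in RPT and 15623 to 16942 CPM in RP, nearly all of it Col1a1 and Col3a1. These and Dpt were higher in RPTi than in RPT, whereas Pdgfra (log2 fold change -0.69, SE 0.065) and Thy1 (-0.45, SE 0.072) were lower. The macrophage list, 6 of 7 matched, summed to 24.5 to 28.8 CPM in RPTi, 44.5 to 46.3 CPM in RPT and 23.4 to 27.3 CPM in RP. Most of it was Cd14. Cd14 and Cd68 were lower in RPTi than in RPT (log2 fold changes -0.74, SE 0.085, and -1.04, SE 0.17). Both were higher in RPT than in RP (0.92 and 0.59). Csf1r did not pass in RPTi against RPT and was lower in RPT than in RP (-0.94, SE 0.32). Cd68 and Csf1r were scarce, with group means of at most 4.46 and 0.944 CPM. Aif1 was at 0 in every RPTi and RPT library and Adgre1 at 0 in every RPTi library. Adgre1 had at most 5 counts in any library and Ptprc at most 4. Aif1, Adgre1 and Ptprc did not pass the filter on low counts. Endothelial markers summed to at most 1.25 CPM in any library, with Cdh5 at 0 in all RPTi and RP libraries. Muscle and fat markers summed to 21.5 to 25.3 CPM in RPTi, 22.5 to 26.2 CPM in RPT and 14.6 to 17.7 CPM in RP, nearly all of it Des. None of the 5 blood cell markers matched a row. The part of these differences in the levels of the replication genes was not tested.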

How the data were processed

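Poly-A selected RNA from primary rat chondrocytes was sequenced in 9 libraries, 3 in each of RPTi, RPT and RP, and groups and replicate numbers came from the sample titles. The authors deposited raw read counts, as whole numbers for each Ensembl gene. Per the submitters' processing notes the build was Rnor_6.0 and the tools included HISAT2, HTSeq 0.11.2 and DESeq2 1.26.0, with no roles or order. Annotation release, strand setting and filters are not given, so reads of overlapping, antisense or near-identical genes are uncertain. The deposited FPKM values equal count over gene length and library total, with a largest relative difference of 2.23e-13.

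Counts were fitted with edgeR 4.0.16 (glmQLFit and glmQLFTest, R 4.3.3) with TMM scaling and a group term over all 9 libraries. filterByExpr (minimum count 10, minimum total 15) kept 13856 of 18924 genes and removed 0.0259% of counts. P-values were adjusted by Benjamini-Hochberg over all tested genes, with a threshold of 0.05. The SE is the log2 fold change over the square root of its F statistic. Alternatives used DESeq2 1.42.0, limma 3.58.1 (voom on counts, and limma-trend on log2 of deposited FPKM plus 1 or 0.1), other scaling and filters, a replicate block, the 2 compared groups alone, and each library left out in turn.

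The members and companion lists were chosen with earlier results of these data known. Members described in full are, in each role, those with the largest and smallest change in RPTi against RPT, the highest FPKM, or a call unlike most of the role. Companion genes named are the 2 with the smallest p in each direction, apart from 2 that are not reported here. Cdt1, Orc1, Cdc6, Mcm3, Mcm5, Mcm6, Mcm10, Gins1, Gins2, Pola2, Dut and the other members with values were named after these were seen. Same-numbered libraries deviated together in 2 of 9 pairs (correlations of -0.114 to 0.124, limit 0.1) and differently numbered ones in 1 of 18 (-0.161 to 0.143). Numbers were therefore not treated as pairs in the main fit. This does not exclude pairing, and a replicate block, run as an alternative, raised the calls over all genes. No 2 libraries of a group were duplicates within sampling noise (chi-square per degree of freedom 5.06 to 27.6).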

Additional observations from a re-analysis of the deposited data

How the results depend on the processing

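Of 19 alternatives per comparison, none reversed a called replication gene. The calls held under all of them for 31 of 37 genes in RPTi against RPT, 22 of 31 in RPT against RP and 7 of 7 in RPTi against RP. Replication genes called ranged over 36 to 38, 29 to 34 and 7 to 12 in those 3 comparisons across settings, and over 32 to 37, 25 to 31 and 7 to 10 when 1 library was left out. In RPTi against RP the count was 12 with library totals alone and on log2(FPKM + 1) or log2(FPKM + 0.1), and 11 with a replicate block, against 7. With the replicate block the other 2 counts were 38 and 34, and the calls over all genes were 6698, 5074 and 4689, against 5745, 3999 and 3352. The 3-group test passed for 36 to 39 genes across settings and 34 to 37 with 1 library left out. The median log2 fold change of the replication genes was -0.49 with library totals alone and -0.48 on log2(FPKM + 0.1) in RPTi against RPT (-0.43 to -0.41 with 1 library left out), 0.34 on log2(FPKM + 1) in RPT against RP (0.35 to 0.39), and -0.12 with library totals alone and -0.12 on log2(FPKM + 0.1) in RPTi against RP (-0.080 to -0.048). With library totals alone, 38.4% of all called genes in RPTi against RPT were higher, against 49.2% with TMM scaling, and 36.6% against 49.1% in RPTi against RP. The median of all tested genes lay between -0.079 and 0.017 under every alternative. Changes of sign, 5, 10 and 54 in the 3 comparisons, were limited to genes that passed on neither side. The median SE of the replication genes was 0.080 on the log2 scale, with 3 libraries per group. How much of it came from counting noise and how much from spread between libraries was not tested. The scarcest gene per length, E2f2, had 141 to 330 counts per library.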

Other observations

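Ratios of FPKM within libraries for 3 pairs of genes, chosen after the values were seen, describe how partner genes were balanced. The ratio of Rrm2 to Rrm1, the subunits of ribonucleotide reductase, was 2.23, 2.30 and 2.22 in RPTi, 2.36, 2.71 and 2.12 in RPT, and 1.87, 1.87 and 1.85 in RP, so that every RPTi and RPT library lay above every RP library. The ratio of Mcm4 to Mcm7 was 0.540, 0.554 and 0.598 in RPTi, 0.553, 0.475 and 0.702 in RPT, and 0.751, 0.710 and 0.849 in RP, where every RPTi and RPT library lay below every RP library. The ratio of the inhibitor gene Gmnn to its target Cdt1 was 1.05, 1.12 and 1.07 in RPTi, 1.39, 1.11 and 1.66 in RPT, and 1.16, 1.16 and 1.46 in RP, with RPT overlapping both other groups.

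The RPT libraries did not keep 1 order over the genes. In 15 of the 42 genes, among them Mcm2, Mcm3, Mcm5, Mcm7, Cdc45, Pold1, Tk1 and Ccne1, RPT replicate 2 was the highest of the 3 and replicate 3 the lowest. In another 15, among them Orc1, Gmnn, Mcm4, Pcna, Prim1, Pole, Rrm1, Tyms and Dut, replicate 3 was the highest and replicate 2 the lowest. Over all tested genes, RPT replicates 2 and 3 were the least alike pair within a group (chi-square per degree of freedom 27.6). These orders were not counted over all tested genes, so they cannot be called particular to the replication genes.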
